A study of Mus musculus with 16 samples.

Results

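Goblet cell and mucus genes were followed through the small intestinal epithelium of neonatal and post-weaning mice. The 10 genes were Muc2, Muc13, Tff3, Fcgbp, Zg16, Agr2, Spdef, Spink4, Retnlb and Atoh1, taken by name from the 24421 genes counted in every library, and all 10 were among the 13429 genes with enough counts to be tested. Bulk RNA sequencing had been done on epithelial cells of wild-type C57BL6/J mice at P6 (postnatal day 6) and P36, with a jejunum and an ileum library from each of 4 mice per age, of which 2 were female and 2 male. The 4 groups of 4 libraries were the P6 jejunum, the P6 ileum, the P36 jejunum and the P36 ileum, and no mouse carried a transgene or received a treatment according to the labels. Replicate numbers name mice within an age, so that replicate 1 of the jejunum and of the ileum came from the same animal. Each library held the epithelium released with EDTA from a short segment, with every cell type of that layer, so that more goblet cells and more RNA per goblet cell cannot be told apart.

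Goblet cells are the secretory cells that make intestinal mucus. They arise from crypt progenitors that escape Notch signalling and switch on the transcription factor Atoh1, and they mature under Spdef. The mucus gel is built from the mucin MUC2, which is folded in the endoplasmic reticulum with the help of the disulfide isomerase AGR2 and heavily O-glycosylated in the Golgi. Goblet cells secrete it together with FCGBP, the lectin ZG16, the trefoil peptide TFF3, the protease inhibitor SPINK4 and the antibacterial RELMβ, encoded by Retnlb. MUC13 is a mucin of a different kind, anchored in the apical membrane of epithelial cells, enterocytes included.

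The windows upstream of the genes that differed between the regions at both ages are shown here, since these genes had the same regional direction in 2 separate sets of mice. RefSeq (GRCm38.p6) gave such a window for 6 of the 10 genes, and each sequence runs 5′ to 3′ along the gene's strand for the 250 bases before the annotated start. Capitals mark matches, on either strand, to CAGNTG (an E-box of the type bound by basic helix-loop-helix factors), TGTTTAC (bound by forkhead factors), TTTATNG (bound by CDX factors) and TATAAA. A stretch that reads CTATAAA would count for both of the last motifs.
Muc2 at chr7:141690090-141690339, plus strand: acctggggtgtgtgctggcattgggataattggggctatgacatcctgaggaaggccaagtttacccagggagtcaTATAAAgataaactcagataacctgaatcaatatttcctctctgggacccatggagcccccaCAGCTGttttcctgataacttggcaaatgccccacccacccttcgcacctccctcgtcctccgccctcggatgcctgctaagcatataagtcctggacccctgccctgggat
Agr2 at chr12:35992675-35992924, plus strand: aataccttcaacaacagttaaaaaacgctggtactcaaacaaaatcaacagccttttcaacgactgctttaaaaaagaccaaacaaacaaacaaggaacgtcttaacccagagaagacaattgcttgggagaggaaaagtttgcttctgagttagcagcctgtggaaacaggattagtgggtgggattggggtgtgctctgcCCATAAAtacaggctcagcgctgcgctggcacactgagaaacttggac
Atoh1 at chr6:64728875-64729124, plus strand: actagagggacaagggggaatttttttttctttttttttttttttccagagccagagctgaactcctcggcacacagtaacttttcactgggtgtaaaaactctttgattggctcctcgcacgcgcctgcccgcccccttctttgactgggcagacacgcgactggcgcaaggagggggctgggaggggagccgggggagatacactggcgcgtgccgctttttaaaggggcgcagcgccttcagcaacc
Spdef at chr17:27728952-27729201, minus strand: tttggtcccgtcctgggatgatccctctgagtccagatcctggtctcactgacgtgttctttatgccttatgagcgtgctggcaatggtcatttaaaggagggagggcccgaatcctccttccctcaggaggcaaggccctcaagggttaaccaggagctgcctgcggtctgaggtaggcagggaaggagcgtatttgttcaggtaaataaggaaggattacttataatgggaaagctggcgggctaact
The Muc2 window held 1 E-box and 1 TATAAA, and the Agr2 window held 1 TTTATNG match. The Atoh1 and Spdef windows held no match to the 4 motifs. Of 32851 such windows in the reference, 44.8% held the E-box letters, 3.17% the forkhead letters, 9.81% the CDX letters and 12.4% TATAAA. Of the windows not printed, that of Fcgbp held 3 E-boxes and each of the 2 windows of Muc13 held 1. The Muc2 gene itself lies at chr7:141690340-141754694 and was counted over 6728 exonic bases, against 760 for Agr2, 1824 for Spdef and 2090 for Atoh1.

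Total counts per library ranged from 12159237 to 25947276, and 3 ileum libraries stood apart from their group. P6 ileum replicate 4 had a strong dependence of its counts on the GC content of transcripts. Spearman's rho between GC content and the deviation from the group mean was -0.754 across 12948 genes. It was 0.417 to 0.595 in the other P6 ileum libraries and -0.21 to 0.35 in the remaining 12 libraries. Deviations cancel out within a group, so that the positive values in the P6 ileum can mirror replicate 4. They do not show a GC dependence of those libraries by themselves. P6 ileum replicate 2 had a summed level of 12 mesenchymal and endothelial markers of 452 CPM (counts scaled to a common library size with the TMM factors of edgeR), against 22.8 to 50.3 CPM in the other 3. P36 ileum replicate 3 had the lowest enterocyte sum of its group (5900 CPM over 10 markers, against 14700 to 38600) and the highest Paneth cell sum (16500 CPM over 10 markers, against 5200 to 7810). The part these features have in the values below was not tested, and values without these libraries are given where they differ most.

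Set against transcript length, the order of the genes changed between the ages. The scale used for levels between genes was CPM per kilobase of counted exon. In the P6 jejunum Muc13 stood first with 968 CPM per kilobase (range 920 to 1013 over 4 libraries), clear of Tff3 with 610 (484 to 672). Muc2 was at rank 7, with 28.7 CPM per kilobase (25.95 to 30.6), below Agr2 at 82.5 (74.4 to 86.6), and its range lay within that of Zg16 just above it. In the P6 ileum Tff3 (mean 1037) and Muc13 (mean 810) led with overlapping ranges, and Muc2 was at rank 6 with 108 (92.0 to 125).

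At P36 the lectin gene Zg16 was first in both regions. It reached 5482 CPM per kilobase in the jejunum (5366 to 5590) and 6480 in the ileum (5280 to 7731), with no overlap with Tff3, the next gene, at 2692 (2440 to 2888) and 4042 (3474 to 4884). Spink4 followed at both sites, with 1464 in the jejunum against 2136 in the ileum. Muc13 had moved to rank 4 in the jejunum (1026) and rank 5 in the ileum (819), where its range overlapped those of Agr2 and Fcgbp. The transcription factors stayed at the bottom of the order at both ages, Spdef at 4.05 to 20.7 CPM per kilobase and Atoh1 at 1.56 to 12.7 across the 4 group means, and below them was Retnlb.

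**Figure D1:**
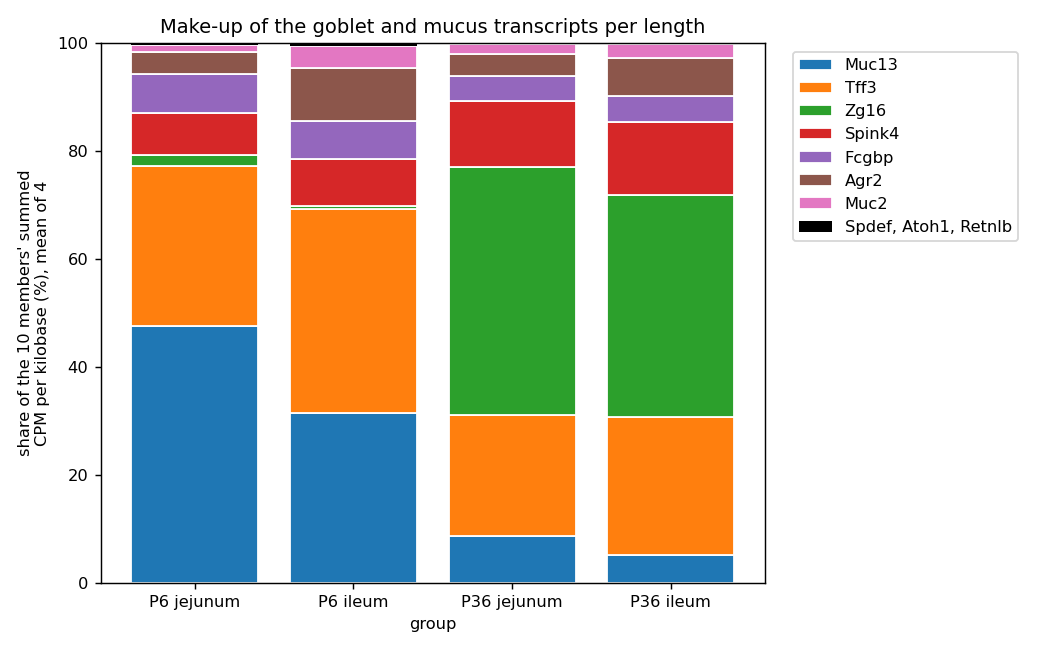
Stacked bars give the share of each gene, in percent, of the summed CPM per kilobase of the 10 genes, as the mean of 4 libraries in each group (x axis). Muc13 held 47.5% in the P6 jejunum against 31.4% in the P6 ileum, and Zg16 held 46.0% and 41.1% at P36, where it had held 1.96% and 0.453% at P6.

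The 10 genes together took 0.419 ± 0.0156% (SD, n = 4) of all counts in the P6 jejunum against 0.595 ± 0.0644% in the P6 ileum. At P36 their share was 1.39 ± 0.0873% in the jejunum against 1.97 ± 0.340% in the ileum. Without Muc13 the 4 shares were 0.160, 0.332, 1.10 and 1.72%, in the same order. The age groups did not overlap in either region.

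The first comparison asked whether the neonatal jejunum and ileum differ in these genes, in a study of how the 2 regions are specialised before weaning. At P6, 5 of the 10 genes were higher in the ileum and none was higher in the jejunum, at an adjusted p below 0.05 by the edgeR quasi-likelihood test with Benjamini-Hochberg adjustment over all tested genes. Over all tested genes 14.8% were higher in the ileum by this test and 11.1% in the jejunum. The median log2 fold change (jejunum over ileum) of the 10 genes was -0.66, against -0.05 over all tested genes.

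Muc2, the gel-forming mucin, showed the largest of these called differences. It had 206, 202, 191 and 175 CPM in P6 jejunum replicates 1 to 4 and 842, 619, 803 and 648 CPM in the matching ileum libraries. Every ileum library was thus above every jejunum library, and the ratio within a mouse was 4.09, 3.06, 4.20 and 3.71. The fitted difference was 3.76-fold (log2 fold change -1.91, SE 0.29 and adjusted p = 0.000159).

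Agr2, whose protein is needed to fold MUC2, had 65.8, 56.5, 63.6 and 64.6 CPM in the P6 jejunum against 170, 157, 171 and 264 CPM in the P6 ileum. The groups did not overlap, and the highest ileum value came from replicate 4, the library with the GC dependence. The log2 fold change was -1.60 (SE 0.19 and adjusted p = 1.46e-05) and was -1.40 with GC content corrected for. Atoh1, which commits progenitors to the secretory lineage, had 3.27, 3.26, 2.99 and 3.50 CPM in the jejunum against 7.01, 6.29, 10.1 and 7.11 CPM in the ileum. This was again a separation of all 4 mice, of 2.34-fold (log2 fold change -1.22, SE 0.20 and adjusted p = 0.000313).

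The other 2 calls at P6 were less secure. Tff3, a trefoil peptide of mucus repair, had 300, 308, 222 and 288 CPM in the jejunum against 559, 654, 469 and 219 CPM in the ileum. Spdef, the maturation factor, had 7.55, 7.18, 8.66 and 6.18 CPM in the jejunum against 18.1, 14.2, 20.7 and 4.27 CPM in the ileum. In both genes 3 mice had more in the ileum and replicate 4 had less, so that the groups overlapped. The log2 fold changes were -0.76 (SE 0.25 and adjusted p = 0.0354) for Tff3 and -0.95 (SE 0.33 and adjusted p = 0.0436) for Spdef. Both calls were lost with the mouse as a replicate block (adjusted p = 0.0657 and 0.0689). With 1 library left out in turn, Tff3 lost its call without any of the 4 jejunum libraries or ileum replicates 1 or 2 (adjusted p 0.0597 to 0.113), and Spdef without any library but ileum replicate 4 (adjusted p 0.0589 to 0.121). Without P6 ileum replicate 4 the adjusted p fell to 0.000252 for Tff3 and to 8.55e-05 for Spdef, and corrected for GC content it was 0.000515 and 0.000149.

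Fcgbp, a large mucus protein that binds to MUC2, also stood apart in that library. Its level was 1309, 1241, 1052 and 997 CPM in the P6 jejunum against 1995, 1818, 1753 and 461 CPM in the P6 ileum. The first 3 ileum libraries lay above all jejunum libraries and replicate 4 lay below them. The log2 fold change was -0.39 (SE 0.35 and adjusted p = 0.439), and it was -0.69 (adjusted p = 0.0271) without ileum replicate 4 and -0.56 (adjusted p = 0.0365) with the GC correction. Spink4 had 57.0 to 68.5 CPM in the jejunum against 71.1 to 111 CPM in the ileum, with no overlap and a log2 fold change of -0.55 (SE 0.22 and adjusted p = 0.0771), which passed in the fit with the replicate block (adjusted p = 0.0386).

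Muc13 and Zg16 did not share the ileal direction at P6. Muc13 had 2732 to 3006 CPM in the jejunum against 2128 to 2935 CPM in the ileum, with a log2 fold change of 0.26 (SE 0.20 and adjusted p = 0.37). Zg16, a lectin that binds the wall of Gram-positive bacteria, was low and uneven, with 3.32, 37.6, 8.14 and 55.1 CPM in the jejunum against 8.93, 0.991, 19.8 and 0.932 CPM in the ileum. Mice 2 and 4 had far more Zg16 in the jejunum and mice 1 and 3 had more in the ileum. Mice 2 and 4 share the first part of their animal number, and so do mice 1 and 3, but the labels do not say what that part means. The grouping was not limited to Zg16. Over all genes of the P6 jejunum, the chi-square per gene between 2 libraries was 19.4 for replicates 1 and 3. It was 13.2 for replicates 2 and 4, and 34.3 to 45.9 for the other pairs. In the P6 ileum it was 20.4 for replicates 1 and 3 but 265 for replicates 2 and 4. The part of this grouping in the values was not tested. The fitted log2 fold change of Zg16, 1.77 (SE 0.84 and adjusted p = 0.136), is the mean of opposite differences between mice. It moved to 2.82 (adjusted p = 0.0299) without ileum replicate 3, to 1.10 (adjusted p = 0.40) without jejunum replicate 4 and to 0.83 (adjusted p = 0.456) without ileum replicates 2 and 4 together. The last fit sets ileum libraries of mice 1 and 3 against jejunum libraries of all 4 mice. Region is thus mixed with the grouping by animal number in that fit. Retnlb had 0, 3, 0 and 0 counts in the jejunum and 0 in every ileum library, too few for a comparison.

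In all, the groups did not overlap for 4 of the 10 genes at P6 (Muc2, Agr2, Atoh1 and Spink4), and this held for 30.1% of all tested genes. Without P6 ileum replicates 2 and 4 together the test called 6 of the 10 genes, and with GC content corrected for it called 7, the 5 above with Fcgbp and Spink4. No gene of the 10 had a called log2 fold change above 2 in size, a rule that 6.50% of tested genes met at this age.

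At P36 the same question was asked after weaning, and 4 of the 10 genes were higher in the ileum: Muc2, Agr2, Spdef and Atoh1. None was higher in the jejunum. Over all tested genes 7.80% were higher in the ileum and 8.30% in the jejunum. The median log2 fold change of the 10 genes was -0.60, against -0.04 over all tested genes, and 0 genes met the rule of a called log2 fold change above 2 in size, which 3.60% of tested genes met.

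Agr2 had 364, 399, 384 and 377 CPM in the P36 jejunum against 605, 834, 1095 and 837 CPM in the P36 ileum, a log2 fold change of -1.15 (SE 0.19 and adjusted p = 0.00048). Spdef had 15.8, 15.5, 14.9 and 18.0 CPM against 27.2, 35.9, 42.1 and 45.8 CPM, a log2 fold change of -1.23 (SE 0.33 and adjusted p = 0.0163). Atoh1 had 11.3, 12.9, 12.4 and 11.9 CPM against 17.5, 24.7, 32.3 and 32.0 CPM, a log2 fold change of -1.13 (SE 0.19 and adjusted p = 0.000713). In these 3 genes all 4 mice had more in the ileum and the regions did not overlap. Without ileum replicate 3 the values were -0.99, -1.18 and -1.03, and all 3 passed. Spdef narrowly lost its call without P36 ileum replicate 4 (adjusted p = 0.0514).

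Muc2 was called at P36 with 1 library going against the others. Its level was 1226, 1493, 1467 and 1382 CPM in the jejunum against 2967, 2996, 992 and 3715 CPM in the ileum. Replicates 1, 2 and 4 had 2.42, 2.01 and 2.69 times as much Muc2 in the ileum as in the jejunum, and replicate 3 had 0.676 times as much. The log2 fold change was -0.94 (SE 0.28 and adjusted p = 0.032), and it was -1.21 (adjusted p = 0.000103) without ileum replicate 3. With the replicate block it was -0.81 (adjusted p = 0.0962), and leaving out any other library of the comparison also took the call away (adjusted p 0.0519 to 0.116).

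In that same library Fcgbp was low too, while some other goblet genes were high. P36 ileum replicate 3 had 3383 CPM of Fcgbp, against 5797 to 7483 in the other 3 ileum libraries. It had the highest levels of Agr2 (1095 CPM), Spink4 (1151 CPM), Atoh1 (32.3 CPM) and Retnlb (167 counts against 22 to 40). P36 ileum replicate 1, with the highest enterocyte sum, had the lowest Agr2, Spink4, Atoh1 and Spdef of the group. In replicate 3 Zg16 (3358 CPM) and Muc13 (1766 CPM) were also the lowest of the group. Thus 4 of the 10 genes were the lowest of the group in replicate 3 and 4 were the highest.

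Fcgbp, Tff3, Zg16, Spink4 and Retnlb were not called between the P36 regions. Tff3 had 1118 to 1323 CPM in the jejunum against 1591 to 2237 CPM in the ileum, with no overlap, and a log2 fold change of -0.59 (SE 0.25 and adjusted p = 0.133). It passed with the GC correction (adjusted p = 0.0143). Spink4 was higher in the ileum in 4 of 4 mice but the groups overlapped, with 473 to 696 against 519 to 1151 CPM (log2 fold change -0.55, SE 0.22 and adjusted p = 0.106). It passed without P36 ileum replicate 1 (-0.72, adjusted p = 0.0152). Zg16 lay at 3413 to 3555 CPM in the jejunum against 3358 to 4917 CPM in the ileum (log2 fold change -0.24, SE 0.80 and adjusted p = 0.888). The fit uses a single dispersion per gene over the 16 libraries, the uneven P6 ones included. Fcgbp had a log2 fold change of -0.47 (SE 0.35 and adjusted p = 0.421) and Muc13 of 0.33 (SE 0.20 and adjusted p = 0.31), which passed without ileum replicate 1 (0.53, adjusted p = 0.0428). Retnlb had 36, 34, 22 and 79 counts in the jejunum against 37, 22, 167 and 40 in the ileum, and its log2 fold change changed sign without ileum replicate 3. The regions did not overlap for 4 of the 10 genes (Agr2, Spdef, Atoh1 and Tff3), as for 26.9% of all tested genes.

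**Figure D2:**
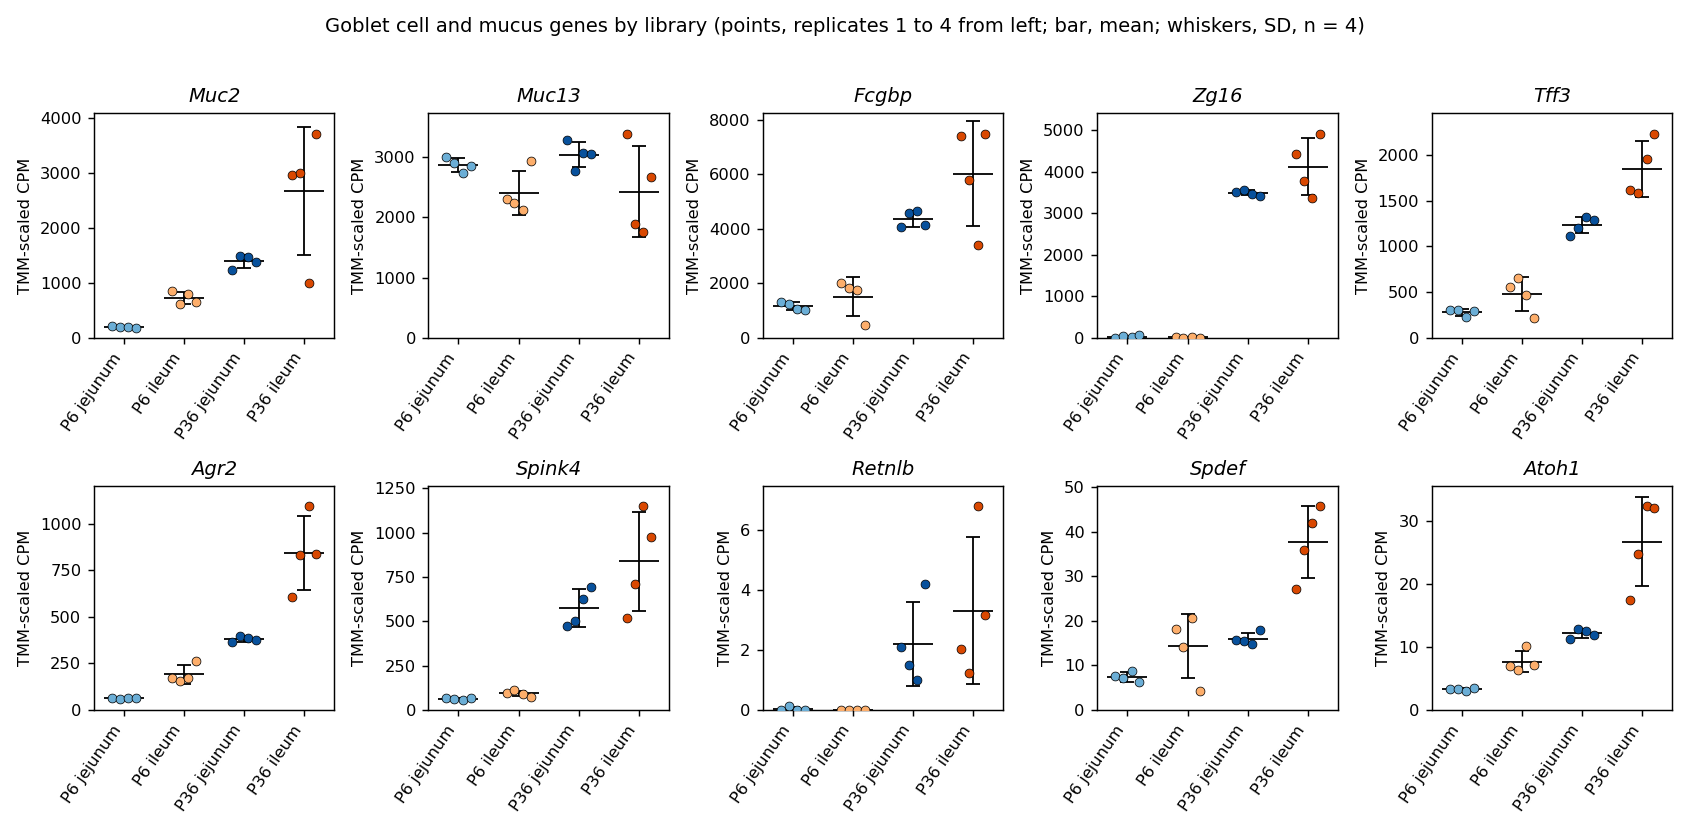
TMM-scaled CPM of the 10 genes (y axes start at 0 and differ between panels) in the P6 jejunum, P6 ileum, P36 jejunum and P36 ileum. Points are libraries, replicates 1 to 4 from left to right, bars are means and whiskers are SDs (n = 4). Agr2 and Atoh1 separate the regions at both ages, Muc13 lies between 1766 and 3395 CPM in every library, and the low Muc2 point in the P36 ileum (992 CPM) is replicate 3.

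An interaction term, the P6 log2 fold change minus the one at P36, asked whether the regional gap changed with age. None of the 10 genes passed in edgeR or in DESeq2, against 8.69% of all tested genes in edgeR. 1 gene had an unadjusted p below 0.05 in edgeR, Muc2, with a difference of -0.97 (SE 0.39, unadjusted p = 0.0254, adjusted p = 0.149). The regional gap of Muc2 was 3.76-fold at P6 and 1.92-fold at P36, and that narrowing did not pass after adjustment over all tested genes. Atoh1 had nearly equal gaps at the 2 ages, with an interaction of -0.09 (SE 0.27 and adjusted p = 0.87). The other interactions lay between -0.46 for Agr2 (SE 0.26) and 2.01 for Zg16 (SE 1.15), Retnlb not counted.

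The second question was how the genes changed between the suckling and the post-weaning age. In the jejunum 9 of the 10 genes rose from P6 to P36 and none fell, where 24.7% of all tested genes rose and 26.9% fell. In the ileum 9 of the 10 rose too and none fell, where 25.5% of all tested genes rose and 30.1% fell. The exception in both regions was Muc13. For the same 9 genes the ages did not overlap in either region, which was so for 63.8% (jejunum) and 44.4% (ileum) of tested genes. Retnlb passed the filter on low counts through its P36 libraries alone, so that its rise is a description, and of the other 9 genes 8 rose in each region. Each age was a separate set of mice, and collection or preparation of the 2 ages on different days cannot be told apart from age.

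**Figure D3:**
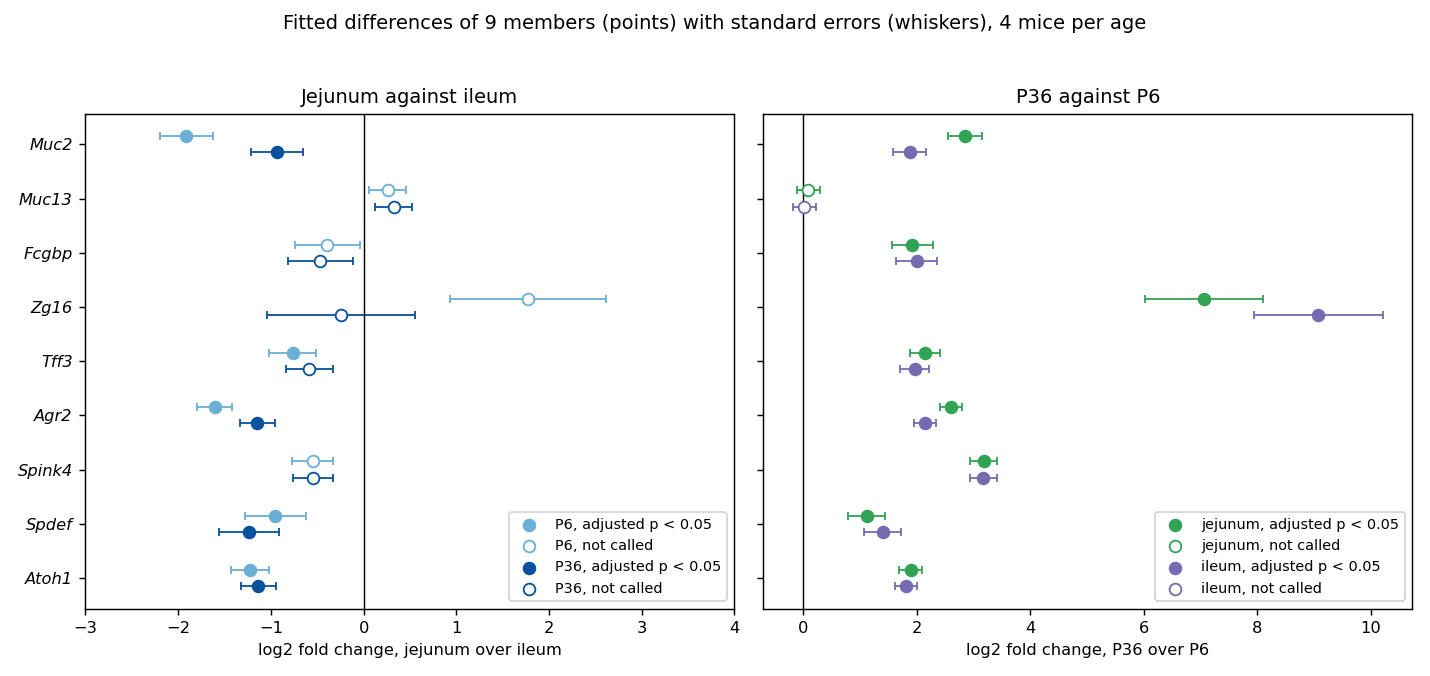
Fitted log2 fold changes (points) with SEs (whiskers) of 9 genes, jejunum over ileum on the left and P36 over P6 on the right, with filled points for an adjusted p below 0.05. Retnlb is not drawn because of its counts at P6. With age the called genes run from 1.12 for Spdef in the jejunum to 9.08 for Zg16 in the ileum, and Muc13 lies next to 0 (0.08 and 0.02) and is not called.

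Zg16 rose the most among the genes with counts in every library. From the P6 values above it reached 3508, 3555, 3469 and 3413 CPM in the P36 jejunum, with 4436, 3775, 3358 and 4917 CPM in the P36 ileum. The P36 jejunum libraries agreed closely, the highest being 1.04 times the lowest, whereas at P6 the highest was 16.6 times the lowest in the jejunum and 21.2 times in the ileum. The log2 fold change was 7.06 (SE 1.04 and adjusted p = 3.38e-05) in the jejunum and 9.08 (SE 1.14 and adjusted p = 5.91e-06) in the ileum.

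Retnlb appeared with age. The P36 jejunum held 171 counts over its 4 libraries against 3 at P6, a ratio of 64.6 after scaling by total counts (95% exact counting interval 21.7 to 316). The P36 ileum held 266 counts against 0, at least 96.6-fold more when the P6 ileum is set at a floor of 3 counts over the group. Of the 266 counts 167 came from replicate 3, without which the bound was 52.6-fold. The interval and the floor cover counting error only, and Retnlb stayed the lowest of the 10 genes at P36.

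Spink4, a Kazal-type inhibitor secreted by goblet cells, rose by nearly the same amount in the 2 regions. It went from 63.6 ± 4.78 CPM (SD, n = 4) to 575 ± 105 CPM in the jejunum and from 93.0 ± 16.6 to 839 ± 280 CPM in the ileum. The log2 fold changes were 3.18 (SE 0.24 and adjusted p = 1.73e-08) and 3.17 (SE 0.24 and adjusted p = 1.92e-08).

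The mucin and its folding enzyme rose together in the jejunum. Muc2 went from 193 ± 14.0 to 1392 ± 120 CPM there, 7.20-fold (log2 fold change 2.85, SE 0.30 and adjusted p = 8.44e-07), and Agr2 from 62.7 ± 4.18 to 381 ± 14.4 CPM, 6.08-fold (log2 fold change 2.60, SE 0.19 and adjusted p = 1.78e-08). In the ileum, which was higher at P6, Muc2 went from 728 ± 111 to 2667 ± 1169 CPM, 3.66-fold (log2 fold change 1.87, SE 0.29 and adjusted p = 4.63e-05). Agr2 in the ileum went from 190 ± 49.7 to 842 ± 200 CPM, 4.42-fold (log2 fold change 2.14, SE 0.19 and adjusted p = 1.39e-07). Without P36 ileum replicate 3 the ileal log2 fold change of Muc2 was 2.15. Without P6 ileum replicates 2 and 4 together the ileal rise was smaller for several genes, at 8.17 for Zg16, 1.70 for Muc2, 1.68 for Fcgbp and 0.96 for Spdef, and each still passed.

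Tff3 and Fcgbp rose by similar factors in both regions. Tff3 rose 4.41-fold in the jejunum (adjusted p = 4.59e-06) and 3.90-fold in the ileum (adjusted p = 1.05e-05), to 1233 ± 91.0 and 1851 ± 306 CPM. Fcgbp rose 3.79-fold in the jejunum (adjusted p = 0.000322) and 3.99-fold in the ileum (adjusted p = 0.000218), to 4352 ± 302 and 6015 ± 1918 CPM, and had the most counts of the 10 genes at P36. The neighbouring gene 9530053A07Rik, for which RefSeq lists FCGBP as a synonym, went the other way. It lies at chr7:28129466-28164811, next to Fcgbp at chr7:28071236-28120864, and was looked up after its values had been seen. It had 41.4, 70.3, 42.7 and 19.7 CPM in the P6 ileum, 2.57 to 8.83 CPM in the P6 jejunum and at most 0.408 CPM in any P36 library (log2 fold change with age in the ileum -7.23, SE 0.67 and adjusted p = 2.08e-07). How the counting treated reads that fit both genes is not given in the sources used here.

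The lineage factors rose least. Atoh1 rose 3.72-fold in the jejunum (log2 fold change 1.90, SE 0.20 and adjusted p = 1e-06) and 3.50-fold in the ileum (log2 fold change 1.81, SE 0.20 and adjusted p = 1.32e-06), to 12.1 ± 0.687 and 26.6 ± 7.05 CPM. Spdef rose 2.17-fold in the jejunum (log2 fold change 1.12, SE 0.33 and adjusted p = 0.00965) and 2.64-fold in the ileum (log2 fold change 1.40, SE 0.33 and adjusted p = 0.00181), to 16.0 ± 1.33 and 37.8 ± 8.13 CPM. Whether the secreted products rose more than the factors was not tested.

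Muc13 was the gene with no call with age. It had 2875 ± 114 CPM in the P6 jejunum, next to 3047 ± 211 CPM in the P36 jejunum (log2 fold change 0.08, SE 0.20 and adjusted p = 0.755). In the ileum it had 2404 ± 362 CPM at P6 and 2431 ± 758 CPM at P36 (log2 fold change 0.02, SE 0.20 and adjusted p = 0.952), a sign that turned when the libraries were scaled by their totals alone (-0.07). An SE of 0.20 leaves room for a small change in either direction.

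With age, the jejunum had 5 of the 9 genes other than Retnlb with a called log2 fold change above 2 and the ileum 3, where 16.4% of all tested genes met this rule in the jejunum, and 16.4% did so in the ileum. Muc2, Tff3, Zg16, Agr2 and Spink4 met it in the jejunum, and Zg16, Agr2 and Spink4 in the ileum. Retnlb is left out of these counts because of its counts at P6. Agr2 in the ileum was at 2.00 without P36 ileum replicate 3. The median log2 fold change of the 10 genes was 2.37 (jejunum) and 1.98 (ileum), also with Retnlb at its bound, against -0.01 and -0.03 over all tested genes. The 2 age comparisons used different libraries.

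Within a group the genes did not vary as a block. Deviations from the group mean in log2 CPM (prior count 2) over the 16 libraries were related in several ways. Tff3, Fcgbp and Spdef deviated together, with Pearson's r of 0.774 for Tff3 and Fcgbp, 0.777 for Tff3 and Spdef and 0.737 for Fcgbp and Spdef. Agr2 went against them, at -0.848 with Fcgbp, -0.511 with Tff3 and -0.422 with Spdef. Spink4 deviated with Tff3 (0.648) and Atoh1 (0.61), and Muc2 with Fcgbp (0.556). The largest deviations of Tff3 (-1.01), Fcgbp (-1.5), Spdef (-1.5) and Agr2 (0.505) were all in P6 ileum replicate 4, so that their r values lean on that library. In P36 ileum replicate 3 Fcgbp was low (-0.763), while Tff3 (0.0941) and Spdef (0.183) were not. These r values describe 16 libraries that share 8 mice, and carry no p.

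The GC content of the transcripts was 59.5% for Spdef, 57.7% for Fcgbp and 55% for Tff3, the 3 highest of the 10, and 46.6% for Agr2 and 46% for Retnlb, the lowest. Over the 16 libraries the deviations of Fcgbp, Tff3 and Spdef had an r of 0.846, 0.824 and 0.806 with the GC dependence of the library, and those of Agr2 -0.692. Those of Retnlb, with the lowest GC content and few counts, had an r of 0.0533. Muc2 (52.3% GC) had an r of 0.317, and Atoh1 (53.1% GC) 0.117. Both the deviations and the GC dependence were taken from the group mean, which ties the libraries of a group to each other. The r values of Fcgbp, Tff3, Spdef and Agr2 lean on P6 ileum replicate 4. That library had the largest deviation of each of these genes and the rho of -0.754. The part that GC content has in the member values of that library was not tested beyond the fit with GC correction, in which Agr2, Muc2 and Atoh1 kept their ileal calls at P6.

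**Figure D4:**
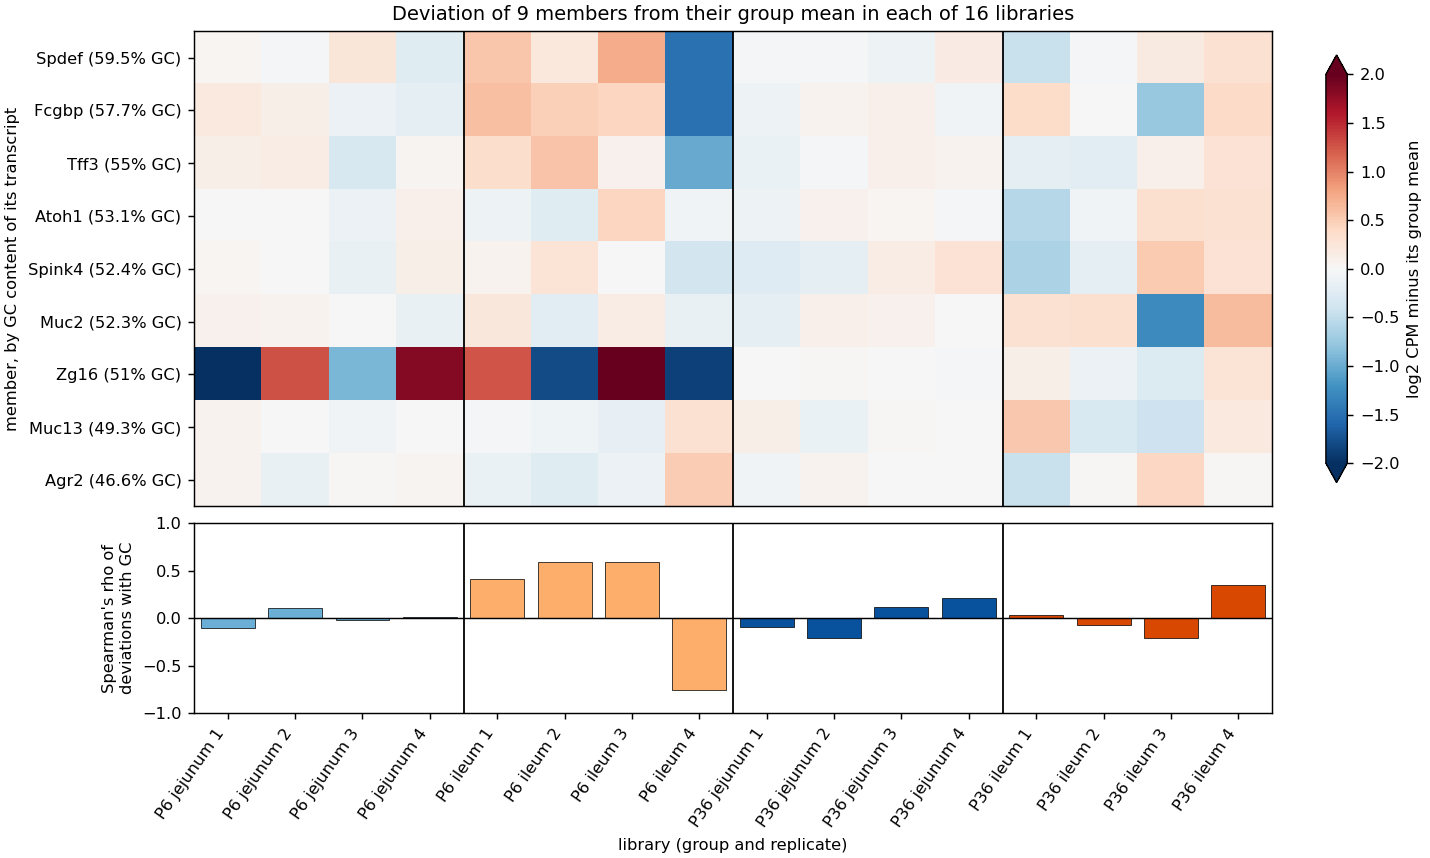
The upper panel shows log2 CPM minus its group mean for 9 genes (rows, ordered by the GC content of the transcript) in the 16 libraries (columns), and the lower panel shows the Spearman's rho of each library's deviations with GC content over 12948 genes. P6 ileum replicate 4, with a rho of -0.754, is low in Spdef, Fcgbp and Tff3 and high in Agr2, and Zg16 alternates between the mice at P6.

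The genes whose pattern was most like that of Muc2 were not other goblet genes once the group means had been taken off. The 10 nearest of 13428 were Zfp827 (r = 0.946 over 16 libraries), Slc2a4rg-ps, Slc22a21, Map3k9, Ulk3, Malat1, Ankrd16, Gabbr1, Ccnl2 and Wipf3 (r = 0.904). Fcgbp ranked 1073 and Agr2 12461 on this list. The deviation of Muc2 was -1.27 in P36 ileum replicate 3, and it lay between -0.221 and 0.222 in the libraries outside the P36 ileum. These ranks thus lean on that library, and ranks without it were not taken. With the group means left in, the nearest included Slc1a1 (r = 0.973), Bcas1 (r = 0.97), Frmd3 and Ceacam1 (r = 0.967), and among the 10 genes Agr2 ranked 75 (r = 0.919), Atoh1 99 (r = 0.912) and Tff3 234 (r = 0.88). Bcas1 is known as a goblet cell gene involved in mucus secretion.

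The counts of the following lists stand beside these shares of all tested genes, which are higher in the ileum 14.8% and in the jejunum 11.1% at P6, 7.80% and 8.30% at P36, and with age risen 24.7% and fallen 26.9% in the jejunum and 25.5% and 30.1% in the ileum. No list was tested against other genes. Genes that control the goblet lineage, other than Atoh1 and Spdef, gave 19 tested genes of 20 listed. Between the regions 8 were higher in the ileum and 1 in the jejunum at P6, and 7 and 1 at P36. Foxa1, a forkhead factor of secretory differentiation, had 10.3 ± 0.482 CPM in the P6 jejunum against 34.7 ± 7.35 CPM in the P6 ileum, and 10.7 ± 1.69 and 36.1 ± 3.98 CPM at P36. Its regional log2 fold change was -1.75 (SE 0.17 and adjusted p = 1.72e-06) at P6 and -1.76 (SE 0.17 and adjusted p = 3.76e-06) at P36, with no call with age in either region (adjusted p = 0.824 and 0.784). Creb3l4, a membrane-bound factor related to the secretory pathway, was also higher in the ileum at both ages (log2 fold change -1.11 and -1.09). Dll1, the Notch ligand of early secretory cells, was the gene higher in the jejunum at both ages (log2 fold change 1.01 and 0.84, SE 0.19 each).

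With age 11 of these regulators rose in the jejunum and 3 fell, and 10 rose and 1 fell in the ileum. Gfi1, which acts downstream of Atoh1, rose with a log2 fold change of 2.56 (SE 0.23) and 2.62 (SE 0.23). Dll4 rose by 3.01 and 2.21 and the Wnt effector Tcf7l2 by 2.27 and 1.78. The list's median log2 fold change with age was 0.80 (jejunum) and 0.79 (ileum), against -0.01 and -0.03 over all tested genes.

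Folding, assembly and secretion of mucin gave 24 tested genes of 25. At P6, 10 were higher in the ileum and 4 in the jejunum, and at P36, 9 and 2. Bcas1 had a log2 fold change of -1.80 (SE 0.14 and adjusted p = 2.29e-07) at P6 and -0.89 (SE 0.13 and adjusted p = 0.000276) at P36, and this narrowing passed the interaction test (-0.92, SE 0.19 and adjusted p = 0.00649). The protease Capn8 was higher in the ileum at both ages (-1.50 and -0.91). The genes higher in the jejunum included P4hb, a protein disulfide isomerase (1.22 and 0.94), and the KDEL receptor Kdelr2 (1.31 at P6), which are used by many secretory cells. Kdelr2, its paralogue Kdelr3 and Nlrp6, a sensor linked to goblet cell secretion, had regional differences that changed with age (interaction 0.93, 1.68 and 1.09).

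With age 13 genes of this list rose in the jejunum and 3 fell, and 16 rose and 4 fell in the ileum. Both counts of risen genes include Agr3, with 18 counts over the P6 jejunum libraries and 28 over the P6 ileum libraries. Its rise is therefore a description. Bcas1 rose by 2.49 (SE 0.14) on the log2 scale in the jejunum and 1.57 (SE 0.14) in the ileum. Rab27a, a small GTPase of granule release, rose by 1.92 and 1.35, Capn9 rose by 2.55 and 2.19, and Slc12a8 rose by 1.42 and 1.65. The median over the list was 0.73 in the jejunum against 1.11 in the ileum.

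Among the enzymes of mucin O-glycosylation some rose and some fell with age, a share of called genes not tested against that of other genes. Of the 22 tested genes of 23 listed, 12 rose and 4 fell in the jejunum and 13 rose and 3 fell in the ileum, with medians of 0.48 and 1.10. The jejunum count includes B3gnt6, which had 0 counts in the P6 jejunum, so that its rise there is a description. The ileum count includes B3gnt6 too, with 15 counts over the P6 ileum libraries. The falls in the jejunum include St6galnac1, with 21 counts over the P36 jejunum libraries. These changes are descriptions as well. St3gal1, which caps the core 1 glycan with sialic acid, went from 764 ± 54.5 to 11.7 ± 2.60 CPM in the jejunum and from 778 ± 117 to 14.0 ± 2.57 CPM in the ileum. These log2 fold changes of -6.03 (SE 0.22 and adjusted p = 1.2e-11) and -5.80 (SE 0.22 and adjusted p = 1.71e-11) were the largest falls in the list.

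Several enzymes that extend, branch or sulfate glycans rose. B3galt5 went from 1.02 ± 0.273 to 124 ± 32.9 CPM in the jejunum and from 0.798 ± 0.561 to 39.5 ± 21.0 CPM in the ileum (log2 fold change 6.93 and 5.61). B3gnt7 rose by 4.87 (SE 0.29) and 4.68 (SE 0.28), and the sulfotransferase gene Chst4 by 3.30 (SE 0.24) and 2.88 (SE 0.24). B3gnt6, the core 3 synthase, had 0 counts in the P6 jejunum but 218 in the P36 jejunum, at least 82.4-fold more against a floor of 3 counts over the group, and the jejunum median of the list is 0.48 also with B3gnt6 at this bound. Gcnt3, which makes branched cores, rose by 3.48 (SE 0.19) in the jejunum and 1.69 (SE 0.18) in the ileum, to nearly equal levels of 141 ± 33.6 and 142 ± 18.8 CPM. Its ileal excess at P6 (log2 fold change -1.80, SE 0.18) was therefore not seen at P36 (-0.01, SE 0.17), and the interaction passed (-1.79, SE 0.25 and adjusted p = 0.000282).

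**Figure D5:**
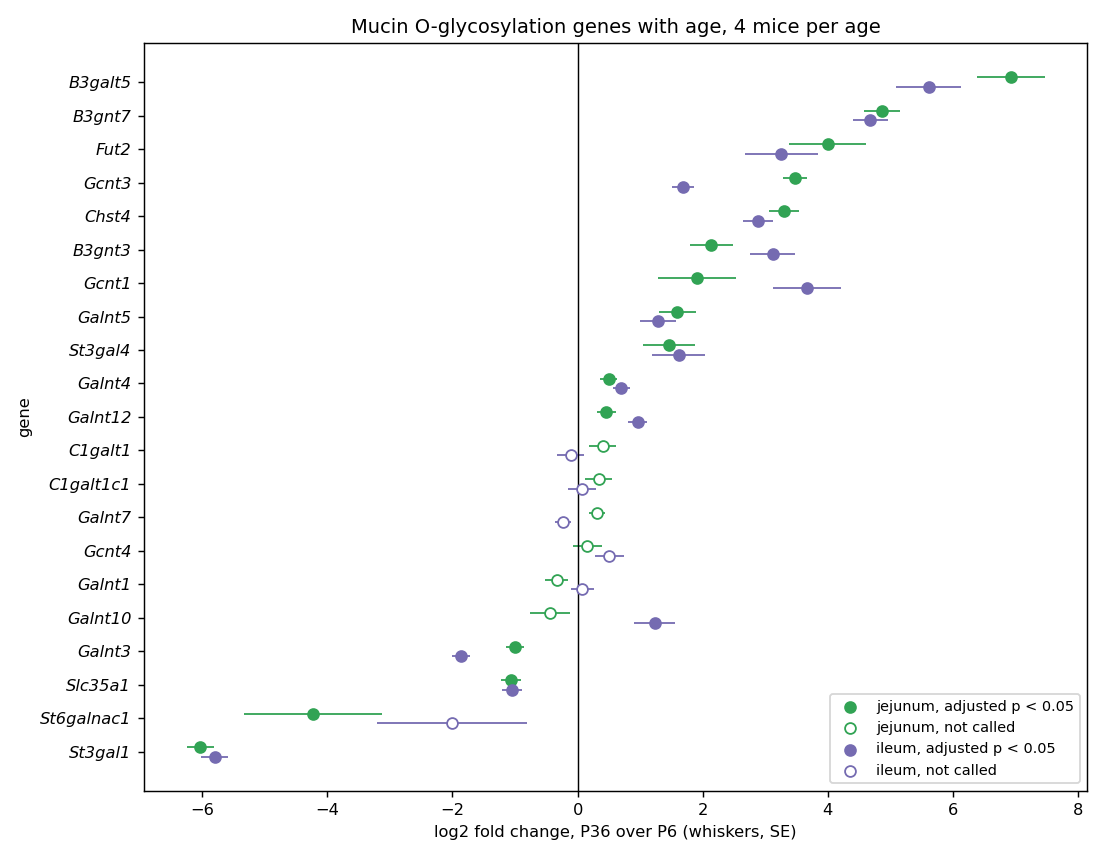
Log2 fold changes, P36 over P6 (x axis), of the mucin O-glycosylation genes (y axis), with SEs as whiskers and filled points for an adjusted p below 0.05, in the jejunum and the ileum (4 mice per age). B3gnt6 is not drawn because it had 0 counts in the P6 jejunum. St3gal1 lies at -6.03 in the jejunum and -5.80 in the ileum, and B3galt5 lies at 6.93 and 5.61.

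Between the regions 11 of the 22 glycosylation genes were higher in the ileum and 4 in the jejunum at P6, and 7 and 1 at P36. Galnt3, which starts O-glycans, had log2 fold changes of -1.53 (SE 0.14) and -0.68 (SE 0.14). Gcnt1 had the widest ileal excess at P36, with 1.42 ± 0.643 CPM in the jejunum against 23.3 ± 14.6 CPM in the ileum (log2 fold change -4.03, SE 0.56 and adjusted p = 0.000139). The count at P6 includes B3gnt6, with 0 counts in the jejunum. B3galt5 was the gene higher in the P36 jejunum (1.65, SE 0.41 and adjusted p = 0.0113).

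Other secreted goblet products gave 13 tested genes of 17 listed. With age 9 rose and 1 fell in the jejunum, and 9 rose and 3 fell in the ileum, with medians of 1.94 and 1.84. Klk1, a kallikrein protease, rose by 5.38 (SE 0.39) in the jejunum and 4.31 (SE 0.36) in the ileum, and Cd177 by 4.39 (SE 0.53) and 5.67 (SE 0.55). Cd177 had only 28 counts over the P6 jejunum libraries and 26 over the P6 ileum libraries, so that its rise starts near the floor. Ang4 rose by 5.10 (SE 0.53) and 5.38 (SE 0.54), but it is made by Paneth cells as well as goblet cells, and the 10 Paneth markers rose from 27.2 to 44.3 CPM in the P6 jejunum to 3840 to 7300 CPM in the P36 jejunum. Clca1, a mucus metalloprotease, rose by 2.86 (SE 0.31) in the ileum and was higher there at P36 (-1.51, SE 0.30 and adjusted p = 0.00248). Between the regions 4 genes were higher in the ileum and 0 in the jejunum at each age. Guca2a, which encodes guanylin, had log2 fold changes of -3.23 (SE 0.38) at P6 and -1.59 (SE 0.36) at P36, and Pla2g10, a secreted phospholipase, of -0.98 (SE 0.28) and -0.93 (SE 0.26).

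Few mucins other than Muc2 and Muc13 could be tested. Of 16 listed, 11 were among the genes counted and 3 could be tested. Muc3, Muc3a, Muc16, Muc17 and Mucl2 were not counted under these names, so that their levels are not known here. Muc5ac, Muc5b, Muc15, Muc19 and Mucl1, named here after their counts were seen, had 0 counts in every library. Muc4, a membrane mucin, rose from 5.02 ± 1.89 to 108 ± 32.5 CPM in the jejunum and from 6.42 ± 2.01 to 48.8 ± 8.24 CPM in the ileum (log2 fold change 4.42 and 2.93), and its regional difference changed with age (interaction -1.50, SE 0.42 and adjusted p = 0.0375). Muc1 fell in both regions (log2 fold change -2.34 and -3.73) from levels of 0.786 ± 0.367 CPM in the P6 jejunum or 1.92 ± 0.65 CPM in the P6 ileum. It had only 12 counts over the P36 jejunum libraries and 10 over the P36 ileum libraries. Its fall thus ends near the floor and is a description. Cdhr5 also fell in both (log2 fold change -1.08 and -1.24).

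Receptors and signalling genes of the cytokines that act on goblet cells gave 10 tested genes of 12. With age 4 rose and 3 fell in the jejunum, and 3 rose and 4 fell in the ileum, with medians of -0.36 and -0.22. Over all tested genes 24.7% rose and 26.9% fell in the jejunum, and 25.5% and 30.1% in the ileum, which for 10 genes is close to these counts. The risen genes in the jejunum include Il2rg, with 16 counts over the P6 jejunum libraries, so that its rise is a description. Il13ra1, a chain of the IL-13 receptor, rose by 1.08 (SE 0.20) and 1.53 (SE 0.20), Il18 rose by 3.25 (SE 0.27) and 2.46 (SE 0.26), and Il10rb fell (-0.75, SE 0.14 and -1.65, SE 0.15). Between the regions 2 genes were higher in the jejunum at P6 (Il13ra1 and Stat6) and 2 at P36 (Il10rb and Il18), and 0 were higher in the ileum. The regional difference of Il10rb changed with age (interaction -0.90, SE 0.20 and adjusted p = 0.0111).

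Markers of other cells moved with the same contrasts. Between P6 and P36 the sum of 10 Paneth markers rose in the ileum from 64.1 to 98.6 CPM to 5200 to 16500 CPM, and that of 10 stem and transit-amplifying markers from 455 to 861 CPM to 1030 to 1930 CPM. The enterocyte sum went from 115000 to 131000 CPM in the P6 jejunum to 39200 to 51400 CPM in the P36 jejunum, and the sum of 10 enteroendocrine markers, another secretory type, stayed between 136 and 269 CPM in all 16 libraries. At P6 the enterocyte sum was 24000 to 29700 CPM in the ileum, below every jejunum library, and at P36 it was 5900 to 38600 CPM in the ileum, again below every jejunum library. The regions thus differed in enterocyte transcripts at both ages, beside the regional calls of the goblet genes. Pancreatic acinar markers reached 108 to 302 CPM in the P6 jejunum and at most 6.61 CPM in every other group, with 4 of 8 markers at 0 in the P6 jejunum. Sums of 9 macrophage and dendritic cell markers were 169 to 513 CPM at P6 and at most 27.3 CPM at P36. In the P6 jejunum, with sums of 423 to 513 CPM, 6 of the 9 markers were under 1 CPM in every library. Few genes thus carry that sum, and it is not a measure of such cells. The part of these other cells in the values of the goblet genes was not tested.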

How the data were processed

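Raw counts of read pairs per gene had been deposited for the 16 libraries. The authors used Trimmomatic (0.38) for adapter trimming and STAR (2.5.3 in the submitters' processing notes) for alignment to mm10, and counted exons by gene with featureCounts (1.6.3), reverse-stranded. Total counts per library were 12159237 to 25947276, and no 2 replicates agreed within sampling noise. Here the counts were tested in edgeR (4.0.16, R 4.3.3) by the quasi-likelihood test, with TMM scaling, filterByExpr, 4 group means over the 16 libraries and Benjamini-Hochberg adjustment over 13429 genes, and a gene passed at an adjusted p below 0.05. The SE is the log2 fold change divided by the root of F. The replicates within a group are separate mice, and the p-values measure the spread between libraries within groups. Each mouse gave a jejunum and an ileum library, and the main fit treated these as independent. The regional and interaction p-values therefore leave out the pairing, which entered only the fits with the mouse as a replicate block.

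The 10 genes and the lists were chosen with earlier results of these data known. In each list the genes named were those that passed with the smallest adjusted p, up to 5 per comparison. Agr3 and St6galnac1 were named for their low counts at 1 age. The genes most like Muc2 were the 10 with the highest r after group means were taken off, and the 5 highest before, of which 1 is not reported here. The jejunum and ileum of a mouse were paired through the animal numbers in the labels, and their deviations correlated at 0.157 to 0.391, against -0.151 to -0.0672 between mice. The procedure was tested on simulated data. There it called 20 of 100 genes given an interaction of 1 on the log2 scale, and 77 of 100 given an interaction of 2. For regional differences of 1 on that scale it called 59 of 100 genes at P6 and 42 of 100 at P36. DESeq2 (1.42.0) was an alternative, and the fits with GC correction and without P6 ileum replicates 2 and 4 together, and the Retnlb ratios with a library left out, were added after seeing the data. Without replicates 2 and 4 the P6 ileum holds only mice that share the first part of their animal number. Every comparison from that fit is mixed with this grouping.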

Additional observations from a re-analysis of the deposited data

Results flagged for a closer look

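Of 38 sets of 4 libraries examined (each gene in each group with enough counts), 2 held a library whose gap to the nearest other library, divided by the range of the group, was above Dixon's critical value for 4 samples, and chance gives about 1 in 20. Both lay in P6 ileum replicate 4. Fcgbp had 461 CPM there, a gap of 0.842 of the range. Agr2 had 264.4 CPM there, a gap of 0.868 of the range, on the high side. The same library had the rho of -0.754 between GC content and its deviations, and Fcgbp has a transcript GC content of 57.7% and Agr2 of 46.6%.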

How the results depend on the processing

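Over 28 settings, 963 recomputed values of single genes gave 879 with the same direction and side of the threshold, 31 that lost and 17 that gained a call, and 36 that changed sign, of which 29 were interactions. A log2 fold minimum of 2 left 0 genes between the regions at P6, 0 at P36 and 4 with age in the ileum, and without the filter on low counts 3 passed between the P6 regions. Leaving out 1 library in turn gave 3 to 7 genes between the P6 regions (3 without any P6 jejunum library or ileum replicates 1 or 2, and 7 without ileum replicate 4) and 2 to 5 between the P36 regions (2 without ileum replicate 4). With the mouse as a replicate block 4 genes passed between the regions at P6 and 3 at P36. Beside Tff3, Spdef and Spink4 at P6 and Muc2 at P36, the block changed no call of the 10 genes. It cannot be fitted for the age comparisons, since each mouse has a single age.

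Sign changes were among small values, and their cause was not tested. With library totals alone Muc13 was at -0.029 between the P6 regions and -0.066 with age in the ileum, and the interaction of Fcgbp was at -0.10, while the median of all genes moved by -0.287 between the P6 regions, -0.137 at P36 and -0.149 in the interaction. The interaction of Spink4 was at 0.0042 with median-of-ratios scaling, 0.0041 in DESeq2 and 0.028 without the filter. With the GC correction, alone and then with the replicate block, interactions were at 0.064 and 0.027 for Muc13, -0.17 and -0.20 for Fcgbp and -0.023 and -0.035 for Spdef. Without P6 ileum replicates 2 and 4 together they were at 0.011, -0.27 and -0.19. With 1 library left out in turn, Retnlb between the P36 regions ranged from -1.12 to 0.037 and Muc13 with age in the ileum from -0.18 to 0.15. The interactions then ranged from -0.27 to 0.064 for Muc13, -0.41 to 0.015 for Tff3, -0.22 to 0.28 for Fcgbp, -0.0155 to 0.49 for Spdef, -0.19 to 0.18 for Spink4 and -0.19 to 0.072 for Atoh1. Depth limits Retnlb at P6 and Zg16 in the P6 ileum, where a library held as few as 19 counts of Zg16.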
